A study of Mus musculus with 21 samples.

Results

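The genes described here are 5 that encode contents of the primary granules of neutrophils or mark the cells that make them: Elane, Prtn3, Ctsg, Mpo and Ms4a3. They were chosen by gene symbol, and all 5 of 5 were found among the 54532 symbols of each of 2 deposited tables of RNA sequencing from primary mouse brain microglia. In the aging table, 12 libraries carried the labels young or aged and wild type or Trem1-/-, 3 in each of the 4 groups. Adult mice gave the 9 libraries of the 5XFAD table, 3 each of wild type, 5XFAD and 5XFADXTREM1+/-. Trem1 encodes a receptor on myeloid cells that amplifies inflammatory responses, and 5XFAD is a mouse line carrying human amyloid precursor and presenilin transgenes, driven in neurons, that develops amyloid plaques. The labels gave ages as words, no sort gate, no isolation steps and not whether each library is its own animal; p-values then measure only the spread between these samples, which may be technical.

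Neutrophils make their granules in order as they mature in the bone marrow. Promyelocytes make the primary (azurophil) granules, later precursors make the secondary granules, and transcription of the primary granule genes is largely shut off before the cell leaves the marrow. Transcripts of these genes are therefore used as markers of immature granulocytes, whereas S100a8, S100a9 or Cxcr2 mark later stages. Elane (neutrophil elastase), Prtn3 (proteinase 3) and Ctsg (cathepsin G) encode serine proteases. Mpo encodes myeloperoxidase, which makes hypochlorous acid, and Ms4a3 encodes a membrane protein of granulocyte and monocyte progenitors, so the last 2 of the 5 genes are not proteases.

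Elane and Prtn3 are neighbours on chromosome 10 (GRCm38, GENCODE M21). Prtn3 (ENSMUSG00000057729.12) lies at chr10:79874476-79883174 and Elane (ENSMUSG00000020125.7) at chr10:79886247-79888215, both on the plus strand, with 3072 bases between them. Mpo (ENSMUSG00000009350.13) lies at chr11:87793581-87804413 on the plus strand, Ctsg (ENSMUSG00000040314.2) at chr14:56099881-56102574 on the minus strand and Ms4a3 (ENSMUSG00000024681.11) at chr19:11629496-11640851 on the minus strand. The sequences upstream of the 3 protease genes are shown because Elane and Prtn3 are neighbours and share 2 of the sets of letters searched, which Ctsg lacks. They come from the RefSeq promoter table (GRCm38.p6, 5 of 5 genes matched), start 150 bases before the RefSeq start, and stop where GENCODE M21 annotates an untranslated region. The window of Prtn3 lies within the GENCODE span of the gene. Capitals mark matches to letters used for PU.1 (GAGGAA) or MYB (AACNG) on either strand, and these letters were chosen with the sequences in view.
Elane, chr10:79886162-79886246, plus strand: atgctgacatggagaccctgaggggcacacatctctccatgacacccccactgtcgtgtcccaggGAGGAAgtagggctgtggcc
Prtn3, chr10:79879517-79879613, plus strand: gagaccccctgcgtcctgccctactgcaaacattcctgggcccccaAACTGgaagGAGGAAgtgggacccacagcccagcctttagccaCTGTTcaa
Ctsg, chr14:56102575-56102724, minus strand: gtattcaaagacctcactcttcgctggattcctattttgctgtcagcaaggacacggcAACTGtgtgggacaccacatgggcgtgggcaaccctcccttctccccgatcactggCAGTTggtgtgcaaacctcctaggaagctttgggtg

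Over the full 150 bases, the PU.1 letters were in 2 of the 5 genes, Elane and Prtn3, against 14.5% of 32851 promoters in the same table. A TATA match (TATAA) was in the same 2 genes, 31 bases before the start of Elane and 32 before that of Prtn3, against 14.2% of promoters. The MYB letters were in 3 genes, Elane, Prtn3 and Ctsg, and in 55.1% of promoters. C/EBP letters (ATTGC) were in Elane and Mpo and in 13.9% of promoters, and Ms4a3 held none of the 4 sets of letters. All 150 bases of Mpo, 65 of Elane and 53 of Prtn3 lie in untranslated regions of GENCODE M21 and are not shown. A match describes the letters only.

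Gene-assigned reads per library ranged from 8600878 to 19411434 (aging) and from 9264999 to 18698707 (5XFAD). The limit that a count of 0 allows, 3 reads, equalled 2.06 to 4.51 and 2.26 to 4.36 normalized counts. Normalized counts are reads divided by the library's size factor, and such limits cover counting error only. Trem1 went against its labels in the young groups: it had 25.2, 7.65 and 8.74 normalized counts in young wild type and 89.4, 99.8 and 89.5 in the libraries labelled young Trem1-/-. It had 269, 188 and 237 in aged wild type and 124, 124 and 244 in those labelled aged Trem1-/-. The aged groups thus overlapped, and group means in the 5XFAD table were 31.0, 27.5 and 27.2. Every genotype direction below rests on the labels. The 10 microglial identity genes summed to between 294067 and 463412 normalized counts (aging) or 313198 and 442149 (5XFAD), and none was at 0 in every library of a group.

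In the aging table, primary granule transcripts were near or at 0 in 2 of 3 young wild-type libraries and present in every library of the other 3 groups. The reads of the 5 genes summed to 92, 0 and 7 in young wild-type replicates 1, 2 and 3. They summed to 891, 411 and 340 in the libraries labelled young Trem1-/-, to 525, 1338 and 840 in aged wild type, and to 2078, 605 and 142 in aged Trem1-/-. Young wild-type replicate 1 thus stood apart within its group, and aged Trem1-/- libraries had both the highest and the lowest sum of the 9 libraries outside young wild type. In bulk RNA, fewer cells of a type and less RNA per cell cannot be told apart.

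Elane, the elastase, had 29.9, 0 and 0 normalized counts in young wild type and 158, 246 and 178 in aged wild type. Libraries labelled young Trem1-/- had 195, 89.1 and 75.8, and those labelled aged Trem1-/- had 516, 220 and 43.6. All 9 libraries outside young wild type lay above all 3 young wild-type ones, while the other 3 groups overlapped one another. The mean of aged wild type was 19.5-fold that of young wild type, and at least 65.6-fold the 3-read limit when young wild-type replicate 1, the only one with reads, was left out.

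Prtn3, its neighbour, had 13.1, 0 and 0 in young wild type and 161, 76.1 and 108 in aged wild type. Libraries labelled young Trem1-/- had 58.7, 91.0 and 50.6, and those labelled aged Trem1-/- had 190, 77.2 and 63.2. Young wild type again lay below every other library, and the other 3 groups overlapped. Over all 3 young wild-type libraries, the means were 26.4-fold higher in aged wild type, 15.3-fold in young Trem1-/- and 25.3-fold in aged Trem1-/-. Without young wild-type replicate 1, the only one with reads, they were at least 39.0-fold, 22.6-fold and 37.3-fold the 3-read limit. The gene spans of GENCODE M21 overlap between Plppr3 and Prtn3 and between Gm11505 and Mpo, and their exons were not compared. Whether the counting used strand is not given in the sources used here, so reads in the overlapping parts cannot be told apart.

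Ctsg, the third serine protease, was low in every group. It had 11.2, 0 and 0 in young wild type, 14.5, 4.84 and 24.2 in young Trem1-/-, 7.78, 39.1 and 24.9 in aged wild type and 61.6, 0 and 21.1 in aged Trem1-/-. All 4 groups overlapped, because young wild-type replicate 1 had reads and aged Trem1-/- replicate 2 had none.

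Mpo, the peroxidase, had the highest mean of the 5 genes in every group of the aging table. It had 29.9, 0 and 6.11 normalized counts in young wild type and 252, 528 and 350 in aged wild type. Libraries labelled young Trem1-/- had 464, 206 and 198, and those labelled aged Trem1-/- had 1149, 436 and 49.6. The lowest library outside young wild type, aged Trem1-/- replicate 3, was still above the highest young wild-type one. Within aged Trem1-/- the libraries differed widely, with a mean of 545 ± 558 (SD, n = 3) against 377 ± 140 in aged wild type. In that lowest library Prtn3 was at 63.2 and Ms4a3 at 36.1, the highest Ms4a3 value in the table.

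Ms4a3, the progenitor membrane protein, had 2 reads in young wild-type replicate 1 and none in the other young wild-type libraries. It had 26.4, 6.78 and 9.48 in young Trem1-/-, 4.44, 28.8 and 14.5 in aged wild type and 23.3, 19.9 and 36.1 in aged Trem1-/-. No library outside young wild type was at 0 for Ms4a3, but the values of the other 3 groups overlapped.

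**Figure D1:**
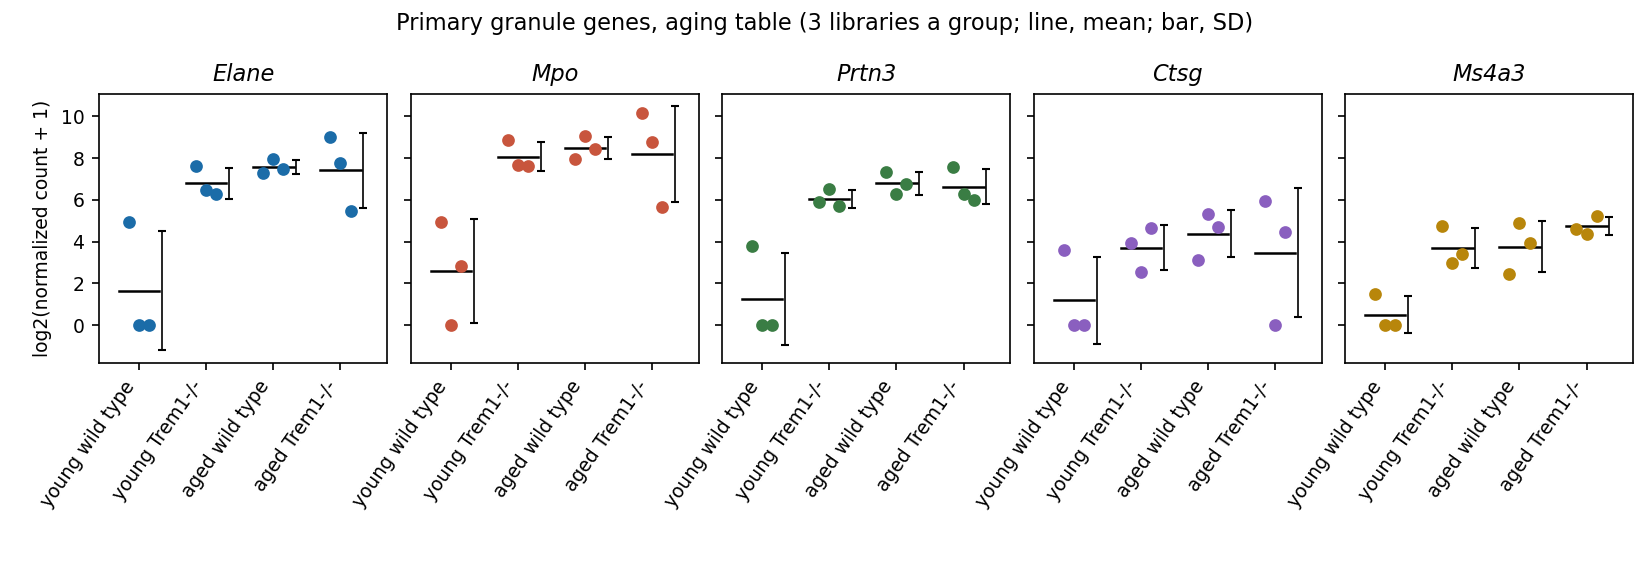
Log2(normalized count + 1) of the 5 primary granule genes in the aging table, by group; points are libraries (3 a group), lines the group mean and bars the SD. For Elane, Mpo, Prtn3 and Ms4a3 all 3 young wild-type libraries lie below every other library, and for Ctsg the groups overlap.

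Per kilobase of exon, mean levels in aged wild type were 197 ± 46.8 for Elane, 110 ± 40.8 for Mpo, 66.4 ± 24.8 for Prtn3, 23.2 ± 15.2 for Ctsg and 8.44 ± 6.50 for Ms4a3 (normalized counts per kb, SD, n = 3). The same order held for the means of both groups labelled Trem1-/-. In aged wild type the intervals of 1 SD around the means did not overlap between Prtn3 and Ctsg, and overlapped for the other neighbours in the order. In young wild type, where most values were 0, Ctsg (3.61) had the second-highest mean after Elane (10.1), and all 5 intervals overlapped.

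The comparison of aged with young wild type asked how age changed these transcripts. Elane, Mpo and Prtn3 had the 3 highest log2 differences of the 16086 genes tested, and 3 of the 5 genes were called higher by limma (Benjamini-Hochberg adjusted p under 0.05), against 6.43% of all genes tested called higher, 2.24% lower and 8.67% in either direction. Groups did not overlap for 4 of the 5, against 15.1% of all genes with aged above young. Of the 5 genes, 4 had a young wild-type mean under 10 and entered the test, which needs a mean of at least 10 over the table, only through the other groups. Differences are of mean log2(normalized count + 1). For genes near 0 these can lie above the log2 ratio of group means, as for Elane here (5.93, ratio 19.5-fold). They can also lie below it, as for Ms4a3 (3.26, ratio 25.6-fold).

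Elane was higher in aged wild type by 5.93 ± 1.32 (log2, SE; limma adjusted p = 0.0236), Mpo by 5.90 ± 1.41 (adjusted p = 0.0375) and Prtn3 by 5.52 ± 0.81 (adjusted p = 9.29e-05). Ctsg differed by 3.18 ± 1.40 (adjusted p = 0.177) and Ms4a3 by 3.26 ± 1.11 (adjusted p = 0.0705), neither past the limma threshold. The median of the 5 differences was 5.52, and that of all genes tested -0.01. Prtn3 kept its call with each of the 12 libraries left out, with limma adjusted p up to 0.00146. The call of Elane was lost when young wild-type replicate 2, replicate 3 or any 1 aged wild-type replicate was left out (limma adjusted p 0.0525 to 0.109). Mpo kept its call in 3 of the 12 fits: without young wild-type replicate 1 or without aged Trem1-/- replicate 1 or 3. Without the filter on low values neither Elane nor Mpo passed, and edgeR, DESeq2 and limma without trend and robust settings called Ms4a3 as well.

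The same comparison between libraries labelled young Trem1-/- and young wild type addressed the genotype in young mice, and its direction rests on labels that the Trem1 reads go against. Prtn3 alone was called, 1 of 5, against 2.36% of all genes called higher and 2.58% in either direction. Groups did not overlap for 4 of the 5, against 11.3% of all genes with young Trem1-/- above. Here too, 4 of the 5 genes, Prtn3 included, had a young wild-type mean under 10 and entered the test only through the other groups. Prtn3 was higher in young Trem1-/- by 4.77 ± 0.81 (limma adjusted p = 0.00135). Elane differed by 5.14 ± 1.32 (adjusted p = 0.0957), Mpo by 5.47 ± 1.41 (adjusted p = 0.110), Ms4a3 by 3.20 ± 1.11 (adjusted p = 0.162) and Ctsg by 2.52 ± 1.40 (adjusted p = 0.531), none past the limma threshold. Without young wild-type replicate 1, Elane was called as well (limma adjusted p = 1.86e-05), and 2 of 5 genes passed. Prtn3 missed the threshold in limma without trend and robust settings (adjusted p = 0.0625).

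Libraries labelled aged Trem1-/- also lay above young wild type, with 3 of 5 genes called, against 4.65% of all genes called higher and 6.67% in either direction. Groups did not overlap for 4 of the 5, against 12.9% of all genes with aged Trem1-/- above. The 3 called genes had young wild-type means of 4.35 (Prtn3), 9.95 (Elane) and 0.622 (Ms4a3). These lie under 10, so the genes entered the test only through the other groups. Prtn3 was higher by 5.35 ± 0.81 (limma adjusted p = 0.000207), Elane by 5.78 ± 1.32 (adjusted p = 0.0314) and Ms4a3 by 4.23 ± 1.11 (adjusted p = 0.0205). Mpo differed by 5.61 ± 1.41 (limma adjusted p = 0.0539) and Ctsg by 2.27 ± 1.40 (adjusted p = 0.396). Only Prtn3 passed without young wild-type replicate 2 or 3 or without aged Trem1-/- replicate 1, and 4 genes, Mpo included, passed without young wild-type replicate 1. Elane was also lost without aged Trem1-/- replicate 2 and Ms4a3 without replicate 3, where Mpo passed. Among the 9 alternatives other than leaving out a library, Mpo was called in 3, edgeR and DESeq2 among them. Elane missed the threshold without the filter on low values and in limma without trend and robust settings (adjusted p up to 0.0860), and Ms4a3 with only the groups compared (limma adjusted p = 0.144). These 3 comparisons share the young wild-type libraries, so their values are not independent of one another. In the authors' deposited table, which compared young wild type with aged Trem1-/- and in which a negative value means higher in aged Trem1-/-, the log2 fold changes were -4.71 for Elane (adjusted p = 0.0237), -5.50 for Mpo (adjusted p = 0.000379), -4.64 for Prtn3 (adjusted p = 2.61e-07), -5.38 for Ms4a3 (adjusted p = 0.00409) and -2.88 for Ctsg (adjusted p = 0.244).

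**Figure D2:**
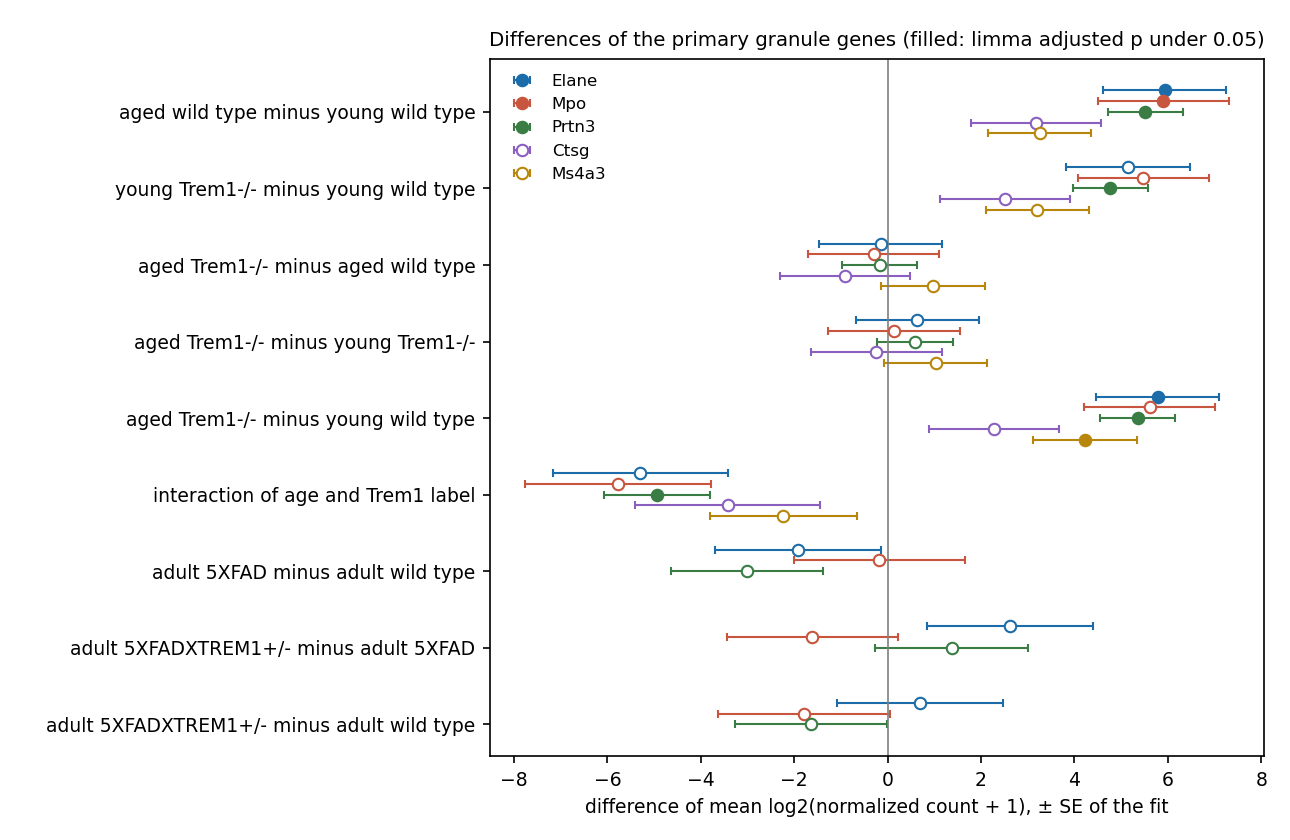
Log2 differences of the primary granule genes between groups, with the standard error of the limma fit as bars; filled points passed the adjusted p threshold of 0.05. In the aging table the differences against young wild type lie between 2.27 and 5.93, and those between the other groups lie between -0.91 and 1.03.

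Outside young wild type, the groups overlapped for all 5 genes. Between aged Trem1-/- and aged wild type, limma called 0 of the 5 genes (0% of all genes tested), 0 of 5 had an unadjusted p under 0.05, and edgeR and DESeq2 called 0. Differences were -0.15 ± 1.32 for Elane, -0.30 ± 1.41 for Mpo, -0.17 ± 0.81 for Prtn3, -0.91 ± 1.40 for Ctsg and 0.97 ± 1.11 for Ms4a3. Between aged and young Trem1-/-, limma likewise called 0 of 5 (1.71% of all genes in either direction), with 0 at an unadjusted p under 0.05 and 0 by edgeR and DESeq2. Those differences ran from -0.24 ± 1.40 for Ctsg to 1.03 ± 1.11 for Ms4a3. The standard errors, 0.81 to 1.41 on the log2 scale, leave room for differences of several fold in either direction.

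The interaction asked whether the difference with age depended on the Trem1 label. It was below 0 for all 5 genes, and 1 of 5, Prtn3, was called lower, against 2.14% of all genes tested called lower and 2.54% in either direction. Prtn3 had an interaction of -4.94 ± 1.14 (limma adjusted p = 0.0203): the age difference was 5.52 in wild type and 0.58 in Trem1-/-. Values for the other genes were -5.77 ± 1.99 for Mpo (limma adjusted p = 0.209), -5.29 ± 1.87 for Elane (adjusted p = 0.209), -3.42 ± 1.97 for Ctsg (adjusted p = 0.431) and -2.23 ± 1.56 for Ms4a3 (adjusted p = 0.535). The Prtn3 call was lost in 7 of 12 fits with 1 library left out, those without young wild-type replicate 2 or 3, young Trem1-/- replicate 2, aged wild-type replicate 1 or 3, or aged Trem1-/- replicate 2 or 3 (limma adjusted p up to 0.0657), and in edgeR and in limma without trend and robust settings (adjusted p up to 0.176). Without young wild-type replicate 1, Elane was called too (limma adjusted p = 0.000581). The Trem1 gene itself had an interaction of -3.40 ± 0.64 (limma adjusted p = 0.00429), in the direction of Prtn3. Prtn3 was at 0 in 2 of 3 young wild-type libraries and entered the test only through the groups where it was higher, so its interaction rests on values at the floor. Genes of other cells were called lower in the same interaction: 5 of 10 monocyte genes (median -2.98; Vcan, a proteoglycan, by -6.29 ± 1.18, limma adjusted p = 0.0340) and 3 of 9 mature neutrophil genes (median -1.93; the chemokine receptor Cxcr2 by -2.73 ± 0.44, adjusted p = 0.00631). Among the other lists, 0 of 10 secondary granule genes, 1 of 8 transcription factors, 1 of 5 progenitor genes and 1 of 10 cell cycle genes were called lower by limma. Their part in the Prtn3 value was not tested.

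Genes that process or hold the primary granule proteins were examined as a list of 8, of which 6 were tested. With age in wild type, 4 rose and none fell (median 0.82). Serpinb1a, a serpin that inhibits elastase, proteinase 3 and cathepsin G, rose by 2.59 ± 0.44 (limma adjusted p = 0.00184) and Srgn, the core of the granule proteoglycan serglycin, from 758 ± 88.2 to 1789 ± 521 normalized counts (SD, n = 3; limma adjusted p = 9.30e-05). Ctsc, the dipeptidyl peptidase that activates the serine proteases and is also made by macrophages, rose by 0.45 ± 0.11 (limma adjusted p = 0.00777) from 4551 to 6233 normalized counts, a level far above that of the proteases it activates. The fourth gene, Slpi, encodes a secreted inhibitor of elastase and cathepsin G and rose by 3.69 ± 0.84 (limma adjusted p = 0.0255); it is named beyond the rule because it completes the count. In young Trem1-/- against young wild type the same list had 3 called higher and none lower, Ctsc, Srgn and Serpinb1a, and in aged Trem1-/- against aged wild type 0 of 6 passed. The interaction called Ctsc (-0.94 ± 0.15, limma adjusted p = 0.00132) and Srgn (-1.52 ± 0.25, adjusted p = 0.00171) lower. Untested for low counts were Prss57, a serine protease of the primary granules, at 0 in all young wild-type libraries and with group means of 0.686 to 6.02 elsewhere, and Bpi, which binds bacterial endotoxin, with group means of 0 to 10.3.

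Of 8 transcription factors of granulocyte differentiation, 3 rose and 1 fell with age in wild type (median 1.03). Cebpb rose by 1.45 ± 0.37 (limma adjusted p = 0.0416) and Cebpd by 0.61 ± 0.15 (adjusted p = 0.0114), both also made by macrophages, whereas Cebpa, required for the step to granulocyte-monocyte progenitors, fell by 0.46 ± 0.13 (adjusted p = 0.0257). Cebpe, needed for secondary granules, was the third that rose, by 1.98 ± 0.57 (limma adjusted p = 0.0303), from 32.8 ± 5.83 to 139 ± 58.5 normalized counts (SD, n = 3). Gfi1, a repressor needed for neutrophil maturation, had means of 1.24 in young and 26.7 in aged wild type, and of 11.8 in young and 18.9 in aged Trem1-/-, and its lowest limma adjusted p over the 5 comparisons of 2 groups was 0.189. Myb, active in progenitors, had 56.5 ± 4.69 in aged wild type against 24.8 ± 28.8 in young (1.76 ± 0.66, limma adjusted p = 0.109). In young Trem1-/- against young wild type 0 of the 8 factors passed. In aged Trem1-/- against young wild type limma called 2 of 8 higher and 0 lower. These were Cebpe, by 1.88 ± 0.57 (limma adjusted p = 0.0472), and Myb, by 2.53 ± 0.66 (adjusted p = 0.0208).

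Myeloid progenitor genes gave a mixed picture. Of 5 tested with age in wild type, 2 rose and 1 fell (median 0.74). Kit, the stem cell factor receptor of progenitors and mast cells, rose by 3.52 ± 1.09 (limma adjusted p = 0.0457) to 55.1 ± 11.7 normalized counts, Hdc, the histamine-making enzyme of basophils, mast cells and other myeloid cells, rose by 4.18 ± 0.42 (adjusted p = 9.30e-05), and Sox4 fell by 0.86 ± 0.22 (adjusted p = 0.0195). In young Trem1-/- against young wild type, 1 of the 5 was called higher and 0 lower (median 0.42). This was Hdc, by 2.82 ± 0.42 (limma adjusted p = 0.00381). Kit was at 11.4 ± 12.4 in young Trem1-/-, where Prtn3 was called higher, and differed from young wild type by 0.42 ± 1.09 (limma adjusted p = 0.946). Whether the members and Kit differ in this respect was not tested.

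Genes of later neutrophil stages moved with the primary granule genes. With age in wild type, 9 of 10 secondary granule genes rose (median 2.90), among them Ltf (lactoferrin) by 3.03 ± 0.64, Ngp by 2.88 ± 0.62 and Lcn2 (lipocalin 2) by 3.33 ± 0.50 (limma adjusted p 0.00445 to 0.0257). Of 9 mature neutrophil genes, 7 rose (median 2.83), including S100a8 by 2.83 ± 0.36 (limma adjusted p = 0.00182) and the gelatinase Mmp9 by 3.36 ± 0.34 (adjusted p = 0.000441). In young Trem1-/- against young wild type these lists had 2 of 10 and 5 of 9 called higher. Csf3r, the G-CSF receptor, which was listed with mature neutrophils, had group means of 9266 to 10359 and differed by 0.08 ± 0.10 with age (limma adjusted p = 0.694).

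Other cell types moved too. Of 10 monocyte genes 8 rose with age in wild type (median 2.82) and 5 were called higher in young Trem1-/-; their summed level ran from 1828 to 3250 in young wild type, 8150 to 20126 in young Trem1-/-, 9433 to 20203 in aged wild type and 9425 to 11454 in aged Trem1-/-. Of 5 tested genes of eosinophils, basophils and mast cells, 3 rose with age (median 3.45), with summed levels of 21.8 to 368, 138 to 343, 383 to 2263 and 665 to 2111 in the same order of groups. Of the 12 genes in that list, 6, 5, 3 and 2 were at 0 in every library of those groups. Erythroid genes had 0 of 5 called (median 0.19; sums of 742 to 1043 in young and 409 to 1399 in aged wild type). Choroid plexus genes had 1 of 5 called higher (median 1.80) and summed to 6067 to 14948 in young and 27035 to 44780 in aged wild type, and to 2399 to 14846 in young Trem1-/-. The only tested gene of B, T and NK cells, Cd79b, differed by -0.44 ± 0.44. Microglial identity genes had 8 of 10 called lower with age (median -0.45). The part of these cell types in the protease differences was not tested.

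Of 10 cell cycle genes, 3 rose with age in wild type (median 1.44) and 4 were called higher in young Trem1-/- (median 1.62). Cenpe, a kinetochore motor, rose by 1.52 ± 0.31 with age (limma adjusted p = 0.00262) and Kif11, a spindle motor, by 1.79 ± 0.38 (adjusted p = 0.00409). Promyelocytes divide, as do other progenitors and some microglia, and these data do not tell which cells carried the transcripts.

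The amount of primary granule RNA relative to later neutrophil RNA was compared within each library, where the size factor cancels. Reads of the 5 genes per 1000 reads of the 10 secondary granule genes were 6.21 (95% Poisson interval 5.00 to 7.61), 0 (up to 0.498) and 0.879 (0.353 to 1.81) in young wild type. They were 12.8, 15.5 and 14.7 in young Trem1-/-, and no interval there reached below 11.97. They were 11.7, 15.1 and 5.75 in aged wild type and 16.05, 8.66 and 4.68 in aged Trem1-/-. The young Trem1-/- libraries lay above all 3 young wild-type ones, whereas 2 aged libraries, aged wild type replicate 3 and aged Trem1-/- replicate 3, fell within the young wild-type range. Intervals cover counting error only. Against the mature neutrophil genes without Csf3r, left out because its level was flat, a choice made after seeing the values, the ratios were 16.1, 0 and 1.77 in young wild type, 30.01 to 39.3 in young Trem1-/-, 13.5 to 43.9 in aged wild type and 10.2 to 44.3 in aged Trem1-/-. Against the 10 monocyte genes the ratios were 26.4, 0 and 3.34 in young wild type and 93.04, 24.3 and 17.8 in young Trem1-/-, so that these groups overlapped. They were 28.9, 97.3 and 40.3 in aged wild type and 194, 79.9 and 18.6 in aged Trem1-/-.

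**Figure D3:**
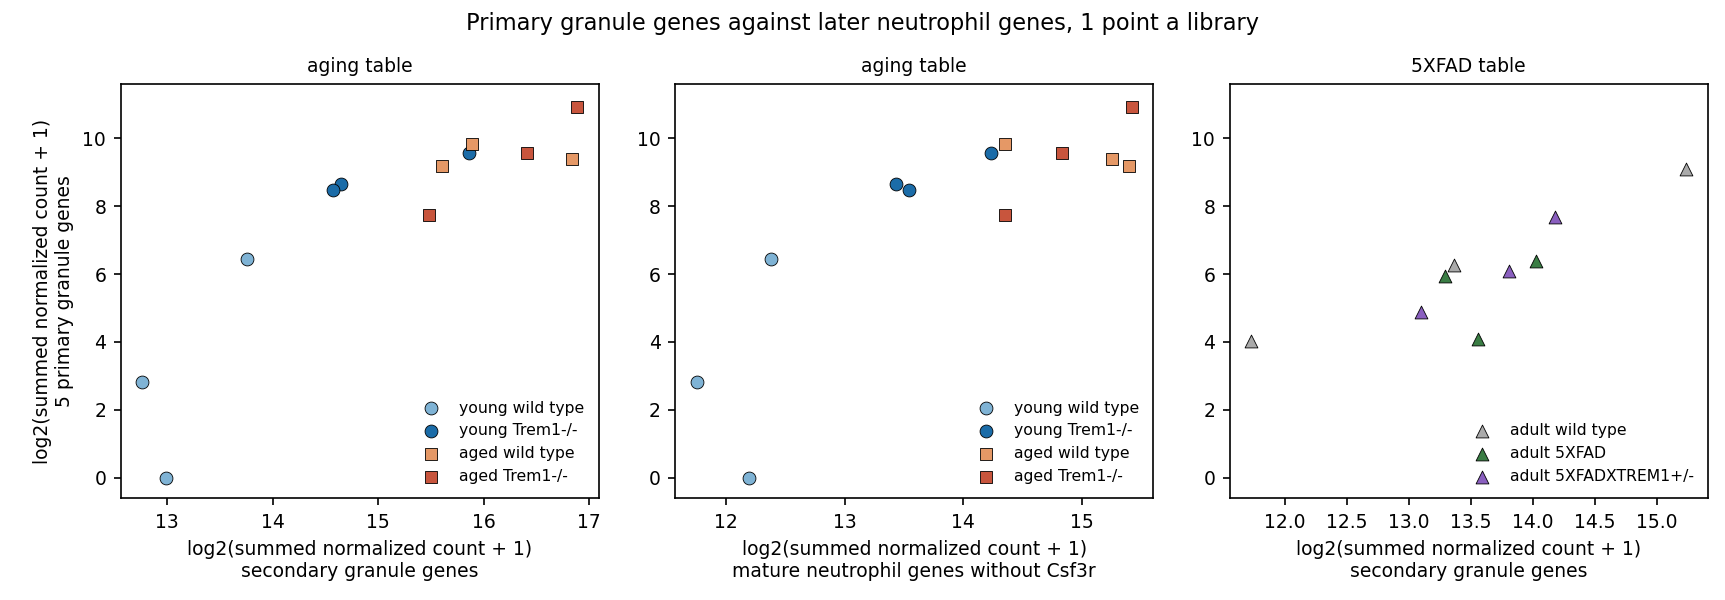
Log2(summed normalized count + 1) of the 5 primary granule genes (vertical) against secondary granule genes, or mature neutrophil genes without Csf3r (horizontal), 1 point a library; the 2 tables have separate panels because they were normalized separately. Young wild-type sums run from 0 to 85.8 normalized counts and the other aging groups from 214 to 1940.

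Chromosome neighbours were set beside the members to see whether the loci moved as a block. Cfd, 2637 bases from Elane on the other side from Prtn3, had a mean of 0.747 normalized counts over the aging table, and Med16, 6492 bases from Elane, differed by -0.47 ± 0.21 with age in wild type (limma adjusted p = 0.184). Lpo, 2014 bases from Mpo, had a mean of 3.13, and Mcpt8, 14607 bases from Ctsg, 0.934. Epx, the eosinophil peroxidase 59586 bases from Mpo, differed by 4.05 ± 1.63 (limma adjusted p = 0.192). Of 10 tested neighbours, 1 was called higher, the macrophage-expressed Ms4a6c of the Ms4a cluster that also holds Ms4a3 (1.33 ± 0.31, limma adjusted p = 0.00855). Sequence shared with other genes was little: of all 50-base words in their transcripts, none of Elane, Prtn3, Ctsg or Ms4a3 and 8 of 3508 of Mpo occurred in another gene. The search read each transcript on its own strand only, so it could not find overlap with a transcript of the opposite strand.

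The 5 genes were correlated over all libraries of the aging table and less so within groups. Over the 12 aging libraries, Pearson r of log2(normalized count + 1) between pairs of members ran from 0.64 to 0.97 (10 pairs, median 0.83), and after subtracting each group's mean from 0.20 to 0.88 (median 0.49). These values share the libraries and their depth and are given as a description. The genes most like the mean of the 5 scaled profiles over those 12 libraries were Dgkg (r = 0.96), Cybb (0.95), Mrgpra2b (0.95), Lmtk2 (0.95), Rasgrp2 (0.95) and Pilrb1 (0.94). Cybb, the phagocyte oxidase subunit, was also in the secondary granule list. Trem1 itself had r = 0.90 with the same mean profile.

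In the 5XFAD table the primary granule genes were low and uneven within every group, and all groups overlapped. Their reads summed to 499, 13 and 100 in adult wild type, 67, 11 and 102 in 5XFAD and 196, 81 and 30 in 5XFADXTREM1+/-. Adult wild-type replicate 1 stood apart with the highest sum. Only 3 of the 5 genes, Elane, Mpo and Prtn3, reached a mean of 10 and were tested.

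Elane had 53.9, 0 and 13.6 normalized counts in adult wild type, 0, 0 and 13.9 in 5XFAD and 59.6, 28.0 and 0.957 in 5XFADXTREM1+/-. Mpo had 410, 5.86 and 16.6, then 52.0, 15.99 and 36.8, then 129, 8.24 and 0, in the same order of groups. Prtn3 had 71.5, 9.37 and 22.6, then 0, 0 and 32.7, then 0, 28.0 and 19.1. The high Mpo value of wild-type replicate 1 made up most of the group's mean of 144 ± 231 (SD, n = 3). Ctsg had 12.1, 0 and 15.8 in adult wild type, 9.12, 0 and 0 in 5XFAD and 8.37, 2.47 and 0 in 5XFADXTREM1+/-. Ms4a3 had 1.10, 0 and 6.78 in adult wild type, no read in any 5XFAD library and 8.37, 0 and 8.61 in 5XFADXTREM1+/-. No member was high in all 3 libraries of a group and low in all 3 of another.

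**Figure D4:**
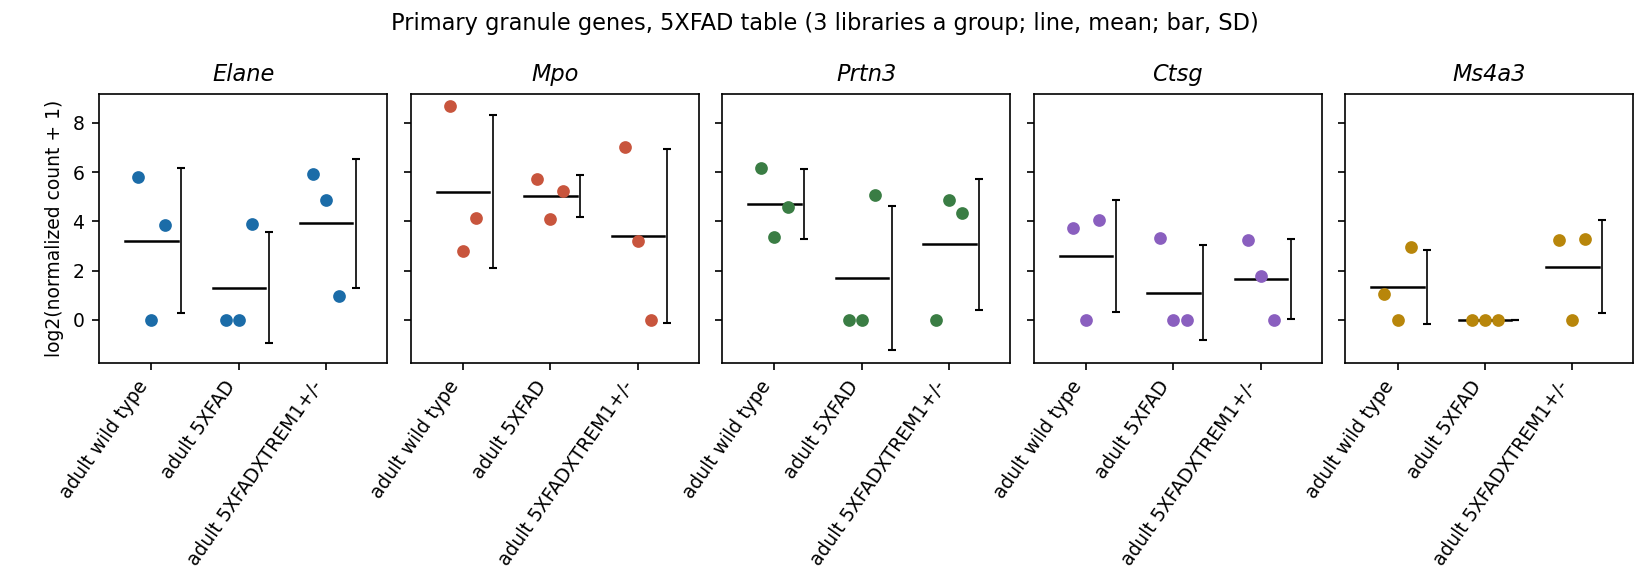
Log2(normalized count + 1) of the 5 primary granule genes in the 5XFAD table, by group; points are libraries (3 a group), lines the group mean and bars the SD. Values overlap between groups for every gene, and Mpo of adult wild-type replicate 1 (410 normalized counts) is the highest point.

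The comparison of 5XFAD with adult wild type asked what the transgenes changed. Limma called 0 of the 3 tested genes (1.98% of all 17025 genes tested in either direction), 0 had an unadjusted p under 0.05, and edgeR and DESeq2 called 0. Differences were -1.92 ± 1.78 for Elane (limma adjusted p = 0.661), -0.18 ± 1.83 for Mpo (adjusted p = 0.977) and -3.01 ± 1.63 for Prtn3 (adjusted p = 0.400). The authors' deposited table, in which a positive value means higher in wild type, gave 2.25 for Elane (adjusted p = 0.593) and 1.65 for Prtn3 (adjusted p = 0.715), and listed no p for Mpo (2.05). Between 5XFADXTREM1+/- and 5XFAD limma called 0 of 3 (0% of all genes tested), with 0 at an unadjusted p under 0.05 and 0 by edgeR and DESeq2, and differences of 2.62 ± 1.78 for Elane, -1.61 ± 1.83 for Mpo and 1.37 ± 1.63 for Prtn3. Between 5XFADXTREM1+/- and wild type limma called 0 of 3 (2.78% of all genes tested in either direction), again with 0 at an unadjusted p under 0.05 and 0 by edgeR and DESeq2, and differences of 0.70 ± 1.78, -1.79 ± 1.83 and -1.64 ± 1.63 in the same order of genes. With standard errors of 1.63 to 1.83, differences of several fold were not detectable here.

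Among the companion genes, Cd63, a membrane protein of primary granules and of lysosomes in many cells including plaque-associated microglia, rose in 5XFAD by 1.35 ± 0.16 (limma adjusted p = 0.000146) and in 5XFADXTREM1+/- against wild type by 1.62 ± 0.16 (adjusted p = 2.47e-05). It was the only 1 of 6 tested partners called in 5XFAD. In 5XFADXTREM1+/- against wild type, Lamp1, a lysosomal membrane protein, rose as well (0.48 ± 0.12, limma adjusted p = 0.0364). Of 5 tested progenitor genes 1 rose in each of these comparisons: Cd34, a surface protein of blood progenitors and of endothelium, by 0.55 ± 0.11 in 5XFAD (limma adjusted p = 0.0140) and by 0.54 ± 0.11 in 5XFADXTREM1+/- (adjusted p = 0.0100). None of 7 tested transcription factors, 10 secondary granule genes or 9 mature neutrophil genes was called by limma in any of the 3 comparisons of this table. Reads of the 5 members per 1000 secondary granule reads were 14.2, 4.48 and 7.13 in adult wild type, 6.08, 1.32 and 5.01 in 5XFAD and 11.1, 4.65 and 3.28 in 5XFADXTREM1+/-, and the groups overlapped. Choroid plexus genes summed to 2328 to 6604 in adult wild type, 14988 to 81736 in 5XFAD and 18295 to 103283 in 5XFADXTREM1+/-. Limma called 0 of these 5 genes in each of the 3 comparisons, and their part in the member values was not tested. Over the 9 libraries, r between pairs of members ran from -0.12 to 0.64 (10 pairs, median 0.34). The genes most like the mean of Elane, Mpo and Prtn3, the 3 members that reached a mean of 10, were Dgkg (r = 0.95), Stfa2l1 (0.93), Clasp1 (0.91), Gm6433 (0.90), Tor1aip1 (0.89) and Gtf2a2 (0.89), of which Dgkg was also first in the aging table.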

How the data were processed

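RNA sequencing of 21 libraries of primary mouse brain microglia was used, grouped by the labels' genotype and age. Per the submitters' processing notes, the tools were fastp, HISAT2 2.0.5, featureCounts 1.5.0-p3 and DESeq2 1.20.0 with GRCm38; the annotation release and strandedness are not given in the sources used here. Each library's deposited column is a signal: the authors' counts scaled by that library's size factor. Undoing the scaling recovered whole reads (tolerance 0.05 read) in 99.9956% or more of the values above 0 in every library. Depths and the count tests use these recovered counts, made from the deposited columns. The authors' deposited columns also held a log2 fold change with its standard error, a Wald score and a p-value, whose direction was checked against the group means. Gene positions come from GENCODE M21 (53749 of 54532 symbols matched).

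The filter kept genes averaging 10 or more normalized counts over a table. Differences in log2(normalized count + 1) were tested with limma 3.58.1 with its trend and robust settings in R 4.3.3, all groups of a table in 1 fit, with Benjamini-Hochberg adjusted p under 0.05 over all genes tested; an exact permutation test of 3 against 3 libraries cannot reach this threshold and was not used. Alternatives were pseudocounts of 0.5 and 5, no filter, TMM scaling, edgeR 4.0.16 (quasi-likelihood), DESeq2 1.42.0, only the groups compared, limma without trend and robust, a replicate block, and each library left out. The fit was tested on simulated data. Members and gene lists were chosen with earlier results of these data known. Named genes were the members, Trem1, at most 3 called genes of largest mean per list (2 where none was called), and the 6 genes most like the members in each table; Slpi, Cebpe, Gfi1, Myb, Kit in young Trem1-/-, Csf3r, Prss57, Bpi and the chromosome neighbours named beyond this were chosen after their values were seen.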

Additional observations from a re-analysis of the deposited data

Results flagged for a closer look

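The difference with age in Prtn3 depended on the Trem1 label by a test of the difference itself: its interaction was -4.94 on the log2 scale (limma adjusted p = 0.0203), with an age difference of 5.52 in wild type and 0.58 in the libraries labelled Trem1-/-. All 3 libraries labelled young Trem1-/- lay above the young wild-type ones. The Trem1 reads go against the labels of the young groups, and the interaction lost its call in 7 of 12 fits that left out 1 library, in edgeR and in limma without trend and robust settings (adjusted p up to 0.176). Prtn3 was at 0 in 2 of 3 young wild-type libraries, so the value rests on the floor of the measurement, and the gene entered the test only through the groups where it was higher. The same interaction was called lower for 5 of 10 monocyte genes and 3 of 9 mature neutrophil genes, whose part in it was not tested.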

How the results depend on the processing

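Of the 9 comparisons, the counts of members called in 5 stayed at 0 under every alternative run: aged Trem1-/- against aged wild type, aged against young Trem1-/-, and all 3 of the 5XFAD table. For aged against young wild type (3 members) the count was 1 without the filter on low values, 4 with edgeR, DESeq2 and limma without trend and robust, and 1 to 3 with each library left out. For young Trem1-/- against young wild type (1 member) it was 2 with edgeR, 3 with DESeq2, 2 with only the groups compared, 0 with limma without trend and robust, 2 with the replicate block, and 1 to 2 with each library left out. For aged Trem1-/- against young wild type (3 members) it was 2 to 4 over the other alternatives and 1 to 4 with each library left out; Elane kept its call in 7 of 9 other alternatives and Ms4a3 in 8 of 9. For the interaction (1 member) it was 0 with edgeR, 0 without trend and robust, 2 with the replicate block, and 0 to 2 with each library left out. The cause of these changes was not tested. The share of all genes called under each alternative is not given here, so these counts describe the members only.

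Directions turned only for members whose difference was not called. In aged Trem1-/- against aged wild type, edgeR gave 0.43 for Elane, 0.54 for Mpo and 0.20 for Ctsg, DESeq2 gave 0.43, 0.53 and 0.21, and leaving out libraries gave -0.94 to 0.82 for Elane, -1.28 to 0.97 for Mpo, -0.64 to 0.14 for Prtn3 and -2.15 to 0.83 for Ctsg. In aged against young Trem1-/-, Ctsg was 0.21 with a pseudocount of 5, 0.93 with edgeR and 0.93 with DESeq2, and leaving out libraries gave -0.16 to 1.61 for Elane, -0.85 to 1.40 for Mpo and -1.49 to 1.498 for Ctsg. In the 5XFAD table, leaving out libraries gave -1.39 to 1.56 for Mpo in 5XFAD against wild type, -3.41 to 0.10 for Mpo in 5XFADXTREM1+/- against 5XFAD (0.37 with edgeR, 0.38 with DESeq2) and -0.91 to 2.18 for Elane in 5XFADXTREM1+/- against wild type.

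Across groups, libraries sharing a replicate number had residual correlations of -0.14 to 0.10 (aging) and -0.03 to 0.20 (5XFAD), so the numbers were not taken as pairs; the replicate block added Elane to the calls in young Trem1-/- against young wild type (limma adjusted p = 0.00848) and in the interaction (adjusted p = 0.0461). Depth limits these results: a library at 0 allows up to 3 reads, and Ctsg and Ms4a3 were too low in the 5XFAD table to be tested.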
